A study of Mus musculus with 10 samples.

Results

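The genes described here are 10 genes of retinoic acid synthesis, breakdown and response, measured by RNA sequencing in the first pharyngeal arch (PA1) of mouse embryos at E10.5. They are Rdh10, Dhrs3, Aldh1a1, Aldh1a2, Aldh1a3, Cyp26a1, Cyp26b1, Cyp26c1, Rarb and Rarg, chosen by name for their place in the pathway. All 10 were found by symbol among the 22114 genes in the table of counts, and all 10 were among the 14561 genes tested, which had at least 10 counts in at least 1 arch. The arches came from 5 wild-type (WT) and 5 Grhl2-/- (KO) embryos, all male and on the C57BL/6 background, with each arch sequenced as a separate library. The KO embryos carry a null allele of Grhl2, an epithelial transcription factor gene, in every cell, from a line backcrossed to C57BL/6J, and were bred by crossing heterozygotes. The whole arch was taken, so epithelium and mesenchyme were measured together, and in such bulk tissue fewer cells of a type and less RNA per cell cannot be told apart.

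Retinoic acid is made from vitamin A in a pair of oxidation steps. RDH10 oxidises retinol to retinaldehyde, DHRS3 turns retinaldehyde back into retinol, and the ALDH1A enzymes oxidise retinaldehyde to retinoic acid. The CYP26 enzymes break retinoic acid down, and the RAR receptors, bound to DNA with an RXR partner, switch their target genes in response to it. Cyp26a1 and Rarb are themselves classical target genes, whose promoters hold a retinoic acid response element of the DR5 type. In the embryonic face, retinoic acid made in and around the eye and nasal pit acts on the neighbouring facial processes, and both its excess and its lack disturb facial development.

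The promoters of Cyp26a1 and Rarb are shown because they were the ones of the measured genes that held a DR5 element, a direct repeat of the receptor-binding unit AGGTCA or of its common variants, with 5 bases between the copies, searched on both strands. Both are RefSeq windows of 300 bases on GRCm38.p6, from 250 bases before to 50 bases after the annotated start, printed 5′ to 3′ on the strand of the gene with the DR5 match in capitals. The first lies at chr19:37697558-37697857 on the plus strand and the second at chr14:16575427-16575726 on the minus strand, at a start inside the longer span of Rarb.

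Cyp26a1: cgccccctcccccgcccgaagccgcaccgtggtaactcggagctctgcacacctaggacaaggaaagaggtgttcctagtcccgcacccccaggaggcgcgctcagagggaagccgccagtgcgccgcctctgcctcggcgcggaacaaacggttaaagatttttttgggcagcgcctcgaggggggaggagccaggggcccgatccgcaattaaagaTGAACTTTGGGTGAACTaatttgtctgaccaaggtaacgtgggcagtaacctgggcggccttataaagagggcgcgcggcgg
Rarb: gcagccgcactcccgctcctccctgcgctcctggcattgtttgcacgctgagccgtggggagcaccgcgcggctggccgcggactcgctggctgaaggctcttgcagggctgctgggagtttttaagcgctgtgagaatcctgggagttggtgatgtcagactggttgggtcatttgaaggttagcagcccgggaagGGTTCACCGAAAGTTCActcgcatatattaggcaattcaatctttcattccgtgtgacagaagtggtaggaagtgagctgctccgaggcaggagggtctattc

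In Cyp26a1 the match lay on the strand opposite to the gene and began 32 bases before the start. In Rarb it lay on the strand of the gene and began 53 bases before the start. A DR5 match on either strand was held by 32 of 32544 RefSeq mouse promoters of this length (0.0983%). Of the 10 genes, 8 had a RefSeq promoter entry, with 12 windows in all, and Rdh10 and Aldh1a3 had none. The same repeat with 2 bases between the copies (DR2), held by 0.27% of all promoters, was not found in these windows. The single unit AGTTCA, held by 14.0%, was found in the windows of Cyp26a1 and Rarb, inside the DR5 matches, and AGGTCA, held by 16.2%, in 1 window of Rarg. The sequence AACCGGTT, the site that Grainyhead-like factors prefer, was held by 0.147% of promoters and by none of the 12 windows. A match is a run of letters only, and binding at these places was not measured here.

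Between 22188454 and 28596428 reads were counted per WT arch and between 25658389 and 28801378 per KO arch, and 3 reads corresponded to between 0.104 and 0.136 CPM (counts scaled to a common library size) in a library. Grhl2 had 794 to 1163 reads in the WT arches and 81 to 178 in the KO arches (log2 fold change -3.02, SE 0.174, limma-voom FDR 2.67e-06). Counts of arches of the same genotype differed by more than sampling noise in each of the 20 pairs, so none was a repeat of another. Several libraries were the lowest or highest of their genotype in marker genes. By Dixon's test, 0 of 48 groups of arches, these sums among them, held an outlier. That test took only the most extreme arch of each group, so it could not decide on arches that stand apart as a pair. The summed level of 10 sensory neuron genes was 143 CPM in WT arch 1 and 125 CPM in WT arch 2, against 574 to 868 CPM in the other WT arches and 338 to 1047 CPM in the KO arches. The summed level of 10 retina and optic vesicle genes was highest, within its genotype, in the arches that carry number 588 in their labels, at 40.9 CPM in WT arch 3 and 117 CPM in KO arch 1. The labels do not say what that number stands for. Values without these arches are given below for several of the 10 genes, and not for the marker genes.

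At the FDR threshold of 0.01 that the study used, 0 of the 10 genes were lower and 0 were higher in the KO arches with limma-voom, over a background of 1.09% of all tested genes lower and 0.879% higher. EdgeR's quasi-likelihood test gave 0 as well. DESeq2 called 1 lower (Rarg) and 4 higher (Aldh1a3, Cyp26a1, Cyp26c1 and Rarb), where it called 3.8% of all tested genes lower and 3.57% higher. On simulated data with 200 genes changed 2-fold, DESeq2 made 18 false calls, against 2 with limma-voom and 2 with edgeR. It also recovered more of the changed genes there, 88% against 83% and 83.5%. The simulated arches did not differ in dissection or label number. Cyp26a1, Cyp26c1, Rarb and Rarg differed by less than 2-fold in the fit, so these rates cannot decide on their calls. At FDR below 0.05, limma-voom gave the same split, 1 lower and 4 higher, against 3.87% and 3.84% of all genes. The count at an unadjusted p below 0.05 was also 1 and 4, against 14.3% and 14.2%. Every KO arch lay above every WT arch in 3 genes (Aldh1a3, Cyp26a1 and Cyp26c1), as it did in 4.22% of all genes, and below every WT arch in 1 gene (Rarg), as it did in 4.66%. The median log2 fold change was 0.32 over the 10 genes and 0.01 over all genes tested. As none of the 10 differences passed FDR 0.01, they are given below as measured values with their FDR. Without WT arches 1 and 2, 0 of the 10 genes were below FDR 0.05, in a fit that called 90 genes lower and 19 higher at FDR below 0.01 over the whole table.

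**Figure D1:**
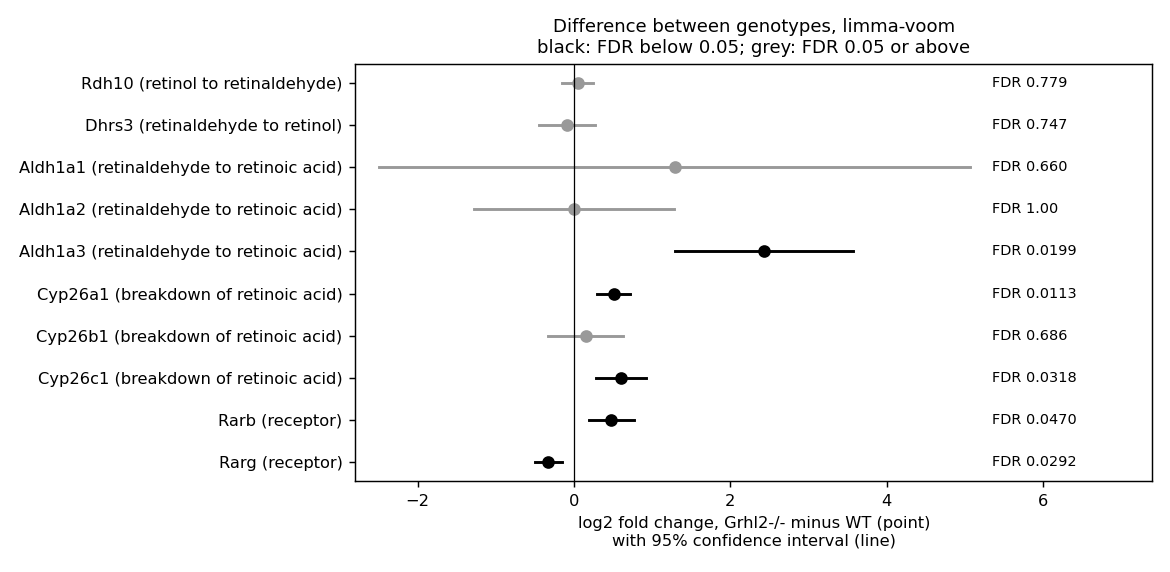
Log2 fold change of each gene, KO minus WT, with its 95% confidence interval from limma-voom over 5 arches of each genotype, and the FDR at the right. The intervals of Aldh1a3, Cyp26a1, Cyp26c1 and Rarb lie above 0, that of Rarg lies below 0, and those of Aldh1a1 and Aldh1a2 are the widest of the 10.

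To compare the genes with each other, CPM was divided by the length of the union of a gene's exons in kilobases, which gives a level per kilobase (RPKM). In the WT arches the receptor gene Rarg was the highest at 27.2 ± 3.36 RPKM (SD, n = 5), above the whole range of the other 9 genes. Cyp26c1 followed at 9.39 ± 1.01 RPKM. Cyp26a1 at 7.35 ± 1.13, Aldh1a3 at 6.72 ± 5.48, Rarb at 6.03 ± 0.610 and Rdh10 at 5.57 ± 0.761 RPKM came next, and each overlapped its neighbours among these 5 genes. Dhrs3 at 3.05 ± 0.604 RPKM lay below these apart from Aldh1a3, whose lowest WT arch was at 1.87. Cyp26b1 at 1.61 ± 0.503 and Aldh1a2 at 1.56 ± 0.765 RPKM overlapped each other, and Aldh1a1 was the lowest at 0.156 ± 0.117 RPKM. In the KO arches Aldh1a3 had the highest mean, 33.7 ± 23.2 RPKM, ahead of Rarg at 21.6 ± 1.299, but its range of 18.6 to 74.7 overlapped the 19.5 to 22.6 of Rarg. The order depends on the length used. With the longest transcript in place of the union of exons, WT Rarb was at 10.2 RPKM and stood above Cyp26c1 at 9.39.

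The first step of the pathway showed no difference between the genotypes that passed a threshold. Rdh10 (chromosome 1, 16105774 to 16133734, plus strand, GRCm38) encodes the enzyme that makes most embryonic retinaldehyde. It was at 28.1, 24.6, 20.5, 21.5 and 21.3 CPM in WT arches 1 to 5 and at 22.8, 23.2, 27.1, 23.9 and 21.3 CPM in KO arches 1 to 5. The groups overlapped over nearly their whole range, and the log2 fold change was 0.05 (SE 0.0916, FDR 0.779). Its 95% confidence interval ran from -0.16 to 0.25, and without WT arches 1 and 2 the log2 fold change was 0.15 (FDR 0.339). Dhrs3 (chromosome 4, 144892827 to 144928209, plus strand) encodes the reductase that works in the opposite direction. It was at 11.6, 8.02, 8.85, 9.27 and 6.87 CPM in the WT arches and at 8.45, 9.26, 8.34, 9.93 and 5.64 CPM in the KO arches. These also overlapped, with a log2 fold change of -0.09 (SE 0.163, interval -0.45 to 0.27, FDR 0.747). The ratio of Rdh10 to Dhrs3 in RPKM was 1.86 ± 0.283 in WT and 2.06 ± 0.406 in KO arches (SD, n = 5 each).

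**Figure D2:**
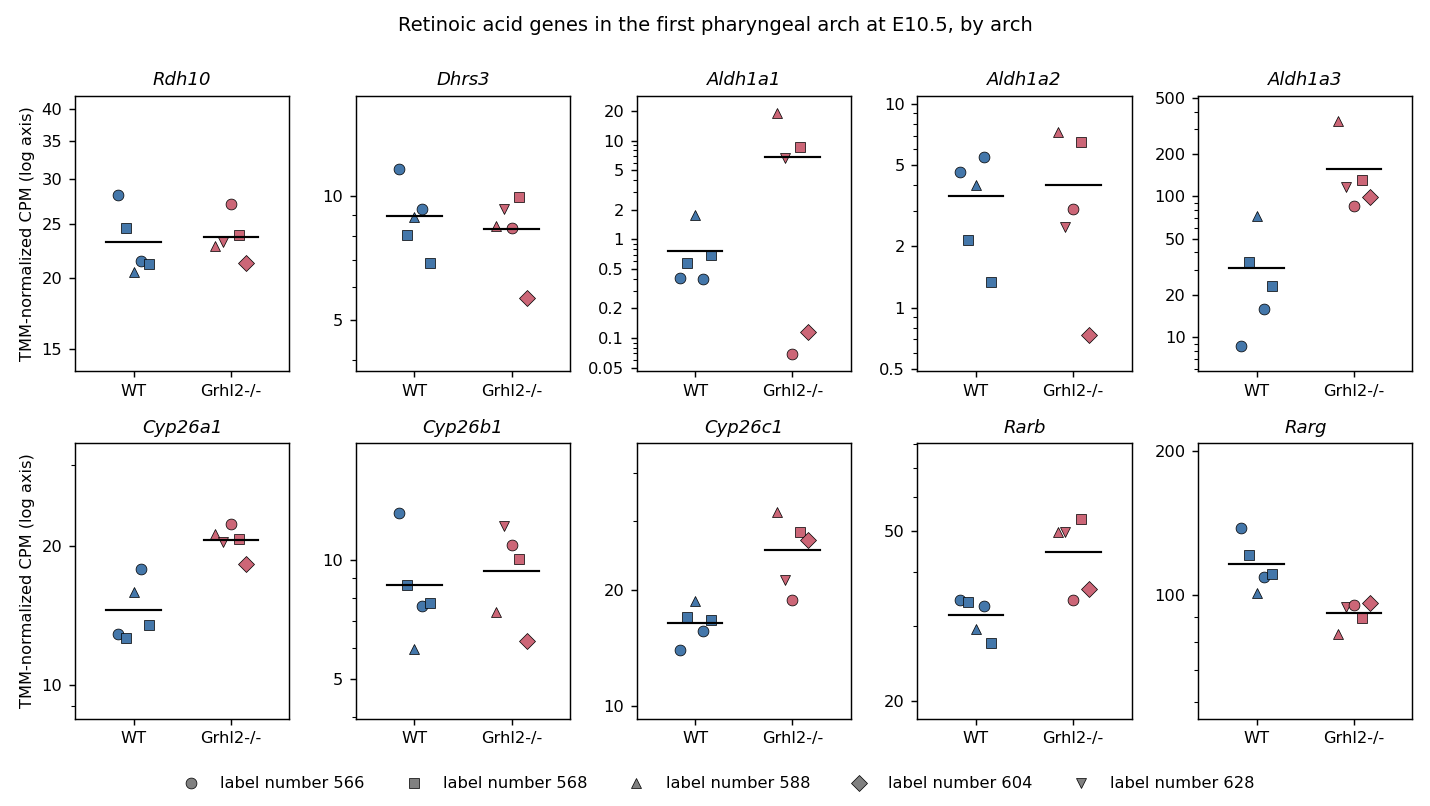
Level of each of the 10 genes in every arch, in TMM-normalized CPM on a log axis, WT in blue and Grhl2-/- in red, with the mean of 5 arches as a black bar and the number in the label as the shape of the point. Every KO arch lies above every WT arch for Aldh1a3, Cyp26a1 and Cyp26c1 and below for Rarg, and Aldh1a1 splits the KO arches into 3 high and 2 low.

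The last step of synthesis held the widest differences. Aldh1a3 (chromosome 7, 66390890 to 66427517, minus strand), known from the eye, the nasal placode and facial ectoderm, was at 8.63, 34.4, 73.0, 16.0 and 23.2 CPM in WT arches 1 to 5. In KO arches 1 to 5 it was at 344.7, 117, 86.0, 131 and 99.3 CPM. Every KO arch was above every WT arch, although WT arch 3 came close to KO arch 3 and the WT arches themselves ranged from 190 to 2095 reads. The mean was 31.1 ± 25.3 CPM in WT and 156 ± 107 CPM in KO arches (SD, n = 5 each), a 5.41-fold higher level in the fit (log2 fold change 2.44, SE 0.520, interval 1.297 to 3.57, FDR 0.0199). The coefficient of variation of 81.5% in WT was the largest of the 10 genes there. The FDR ranged from 0.013 to 0.0502 when each arch was left out in turn, and the one value above 0.05 came without WT arch 5. It was 0.112 without WT arches 1 and 2 (log2 fold change 2.14), and 0.00324 without both arches of number 588 (log2 fold change 2.51). Between arches that share a label number, the KO arch exceeded the mean of its WT arches by 2.24 (number 588), 2.87 (566) and 2.21 (568) on the log2 CPM scale. With the label number as a block the FDR was 0.0012. KO arches 2 and 5 share their numbers with no WT arch, so a fit with this block compares the genotypes through KO arches 1, 3 and 4.

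Aldh1a1 and Aldh1a2 did not follow this pattern. Aldh1a1 (chromosome 19, 20492715 to 20643465, plus strand), known from the dorsal retina, had 9, 16, 51, 11 and 17 reads in the WT arches and 532, 174, 2, 242 and 3 reads in the KO arches. In CPM this was 0.409, 0.575, 1.78, 0.400 and 0.687 in WT and 19.0, 6.74, 0.069, 8.61 and 0.116 in KO. KO arches 1, 2 and 4 were above every WT arch, while KO arches 3 and 5, at or below the 3 reads taken as the floor, were below every WT arch. The log2 fold change of 1.29 had an SE of 1.73 and an interval from -2.49 to 5.07 (FDR 0.660), so that neither direction was shown. The value moved widely with the setting. It was 3.14 with edgeR (FDR 0.0887), 3.16 with DESeq2 (FDR 0.0483), between 0.37 (without KO arch 1) and 2.42 (without KO arch 3) with arches left out 1 at a time, and 0.75 without both arches of number 588. Aldh1a2 (chromosome 9, 71215789 to 71296243, plus strand), which makes most retinoic acid in the mesoderm of the trunk, was at 4.63, 2.16, 4.01, 5.49 and 1.33 CPM in WT and at 7.31, 2.48, 3.05, 6.51 and 0.734 CPM in KO arches. Both groups spread several-fold and overlapped, and the fit gave a log2 fold change of 0.00 (SE 0.586, interval -1.28 to 1.28, FDR 1.0).

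The balance among the ALDH1A genes therefore differed by arch. Aldh1a3 made up 46.8%, 87.5%, 88.1%, 58.0% and 87.3% of their summed RPKM in WT arches 1 to 5, with Aldh1a2 at 51.2% in WT arch 1 and 40.6% in WT arch 4. In the KO arches the share of Aldh1a3 ran from 86.0% to 98.4% and that of Aldh1a2 from 1.48% to 8.73%. The summed RPKM was 3.998, 8.52, 17.9, 5.97 and 5.75 in WT and 81.7, 27.9, 19.99, 33.0 and 21.9 in KO arches. The groups did not overlap in this sum, and they did overlap once Aldh1a3 was left out (1.71 ± 0.768 RPKM in WT and 3.17 ± 2.70 in KO arches).

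Aldh1a3 and Aldh1a1 were highest in arches that were also high in eye genes. The summed level of the 10 retina and optic vesicle genes (among them Rax, Six3, Six6, Lhx2, Pax6 and Pmel) was 13.0 to 40.9 CPM in WT and 22.1 to 117 CPM in KO arches, with 0 of the 10 at FDR below 0.01 and 1, Six3, below 0.05 (FDR 0.0291). KO arch 1 was the highest arch of all in this sum and in Aldh1a3, and WT arch 3 the highest WT arch in both. KO arches 3 and 5 had retina sums of 22.1 and 24.7 CPM, above the 13.0 to 18.9 CPM of WT arches 1, 2, 4 and 5 and below the 40.9 CPM of WT arch 3. Hmx1, which sensory ganglia also express, made up 11.8 and 11.1 CPM of the sums of KO arches 3 and 5, and Hmx1 and Lhx2 together most of the sums of the 4 low WT arches. Hmx1 was lowest in WT arches 1 and 2 (2.23 and 3.67 CPM), the arches low in sensory neuron genes. The Aldh1a3 of KO arches 3 and 5, 86.0 and 99.3 CPM, was above the 73.0 CPM of WT arch 3. In KO arches 3 and 5 the eye genes differed among themselves. Rax, a defining gene of the eye field, was under the level of 3 reads there (0.035 and 0.077 CPM), as it was in every WT arch but arch 3. Six3 was at 1.004 and 1.043 CPM there, above its 0.081 to 0.697 CPM in the WT arches, and Pax6 at 2.80 and 4.63 CPM and Six6 at 2.60 and 3.24 CPM were above all WT arches but arch 3. Aldh1a1 was high in the arches where Pmel, a pigment cell gene, was high. Pmel was at 12.1, 7.09 and 10.3 CPM in KO arches 1, 2 and 4, at 0.312 and 0.348 CPM in KO arches 3 and 5, and between 0.252 and 1.01 CPM in the WT arches. The part of eye tissue in the differences of Aldh1a1 and Aldh1a3 was not tested.

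**Figure D3:**
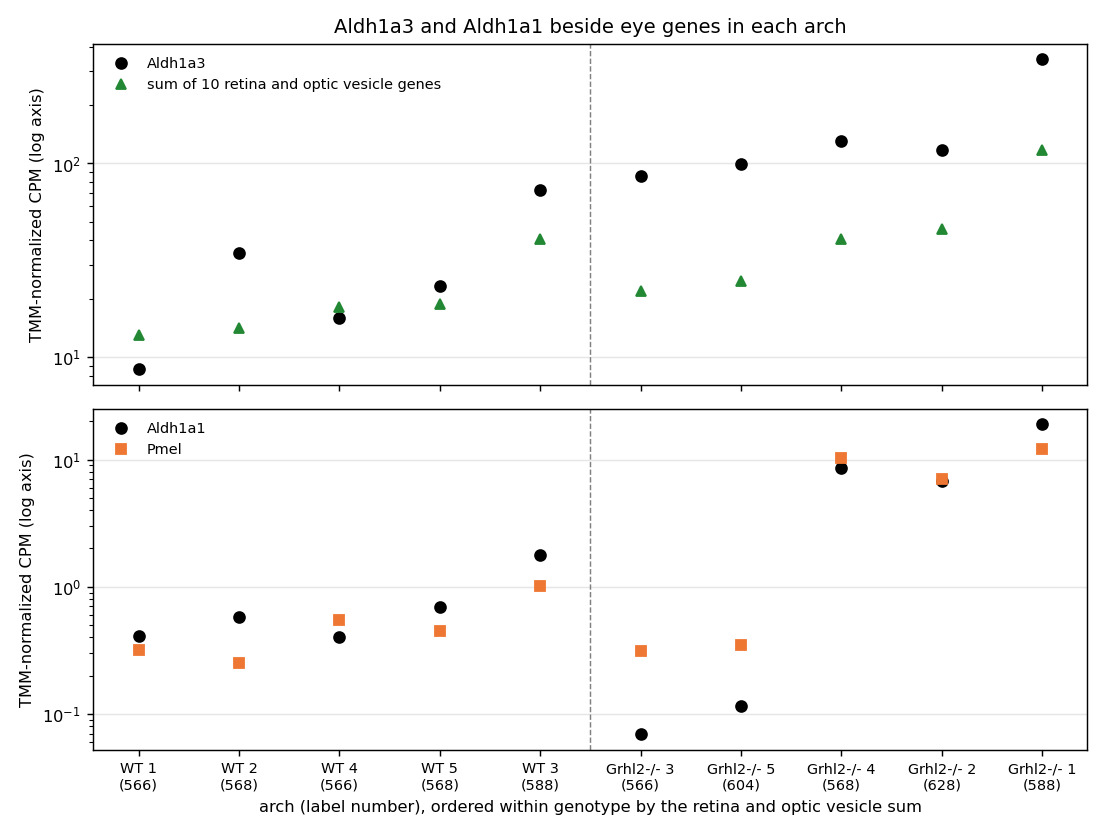
Aldh1a3 with the summed level of the 10 retina and optic vesicle genes (upper plot), and Aldh1a1 with Pmel (lower plot), in every arch, in TMM-normalized CPM on log axes, ordered within each genotype by the retina sum. Aldh1a3 is at 86.0 CPM or more in all 5 KO arches, also in KO arches 3 and 5, whose retina sum is below that of WT arch 3 and above those of the other WT arches, and Aldh1a1 is high in the KO arches where Pmel is high.

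Genes of the nasal region were read in the same way. The summed level of 6 olfactory and nasal placode genes was 49.7 to 96.0 CPM in WT and 103 to 119 CPM in KO arches without overlap. Most of this sum was Ebf2, at 59.1 CPM in WT and 81.9 CPM in KO arches on average, which overlapped between the genotypes (FDR 0.0949) and was lowest in WT arches 1 and 2 (36.5 and 44.3 CPM). Of the 5 tested, 1 passed FDR 0.01, the transcription factor gene Sp8, which rose from 2.52 ± 0.661 to 8.21 ± 1.59 CPM (SD, n = 5 each; log2 fold change 1.69, FDR 0.000943). The part of nasal tissue in the difference of Aldh1a3 was not tested.

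Of the genes for breakdown, Cyp26a1 and Cyp26c1 had FDR values below 0.05 but not below 0.01, and Cyp26b1 passed neither threshold. Cyp26a1 (chromosome 19, 37697798 to 37701536, plus strand) was at 12.9, 12.7, 16.0, 17.9 and 13.5 CPM in WT arches 1 to 5 and at 21.3, 20.5, 22.3, 20.7 and 18.3 CPM in KO arches 1 to 5. The lowest KO arch lay just above the highest WT arch, and the KO arches were close together, with a coefficient of variation of 7.08%. The level was 1.42-fold higher in the fit (log2 fold change 0.50, SE 0.0965, interval 0.29 to 0.72, FDR 0.0113). With each arch left out in turn the FDR ran from 0.00421 to 0.0362, and it passed 0.01 only without WT arch 4, the highest WT arch, where the log2 fold change was 0.58. Without WT arches 1 and 2, the 2 lowest, the log2 fold change was 0.38 with an FDR of 0.105. Within label numbers the KO arch was higher by 0.41, 0.56 and 0.66 on the log2 CPM scale.

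Cyp26c1 (chromosome 19, 37685581 to 37693398, plus strand) lies 4399 bases before Cyp26a1 on the same strand. It was at 13.9, 17.0, 18.7, 15.7 and 16.7 CPM in WT and at 31.8, 21.2, 18.8, 28.1 and 26.9 CPM in KO arches. The groups were separated by less than the distance between any other neighbours, since KO arch 3 at 18.79 CPM was next to WT arch 3 at 18.72 CPM. The level was 1.52-fold higher in the fit (log2 fold change 0.60, SE 0.145, interval 0.28 to 0.92, FDR 0.0318). Leaving out each arch in turn moved the FDR between 0.00764, without KO arch 3, and 0.078, without WT arch 1. It was above 0.05 also without WT arch 2 (0.0707), WT arch 4 (0.0597), WT arch 5 (0.0637), KO arch 4 (0.0758) or KO arch 5 (0.067), and it was 0.175 without WT arches 1 and 2. The log2 fold change stayed between 0.50 and 0.71 over the arches left out 1 at a time.

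Cyp26b1 (chromosome 6, 84571414 to 84593908, minus strand), the CYP26 gene known from limb and skeletal precursors, was at 13.1, 8.63, 5.96, 7.67 and 7.80 CPM in WT and at 7.38, 12.2, 10.9, 10.1 and 6.26 CPM in KO arches. WT arch 1 was the highest arch of all, and the log2 fold change was 0.15 (SE 0.219, interval -0.33 to 0.63, FDR 0.686). The interval overlaps those of Cyp26a1 and Cyp26c1, and the difference between the genes was not tested. With arches left out 1 at a time, the log2 fold change of Cyp26b1 ran from 0.02 (without WT arch 3) to 0.29 (without WT arch 1). Without WT arches 1 and 2 it was 0.35 (FDR 0.428). Per kilobase, the CYP26 genes summed to 16.9, 17.7, 19.9, 19.4 and 17.8 RPKM in WT and to 30.3, 24.7, 24.1, 28.4 and 25.8 RPKM in KO arches, without overlap. Cyp26a1 and Cyp26c1, each without overlap on its own, made up most of the CYP26 sum, so it is not a separate result. In WT and KO arches, Cyp26a1 made up 39.9% ± 3.94 and 39.3% ± 4.91 of this sum, Cyp26b1 8.95% ± 3.35 and 6.68% ± 2.17, and Cyp26c1 51.1% ± 4.11 and 54.0% ± 6.84 (SD, n = 5 each), and the shares were not tested. The ratio of the ALDH1A sum to the CYP26 sum was 0.236, 0.481, 0.903, 0.308 and 0.323 in WT and 2.70, 1.13, 0.831, 1.16 and 0.846 in KO arches. WT arch 3 lay inside the range of the KO arches in this ratio.

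**Figure D4:**
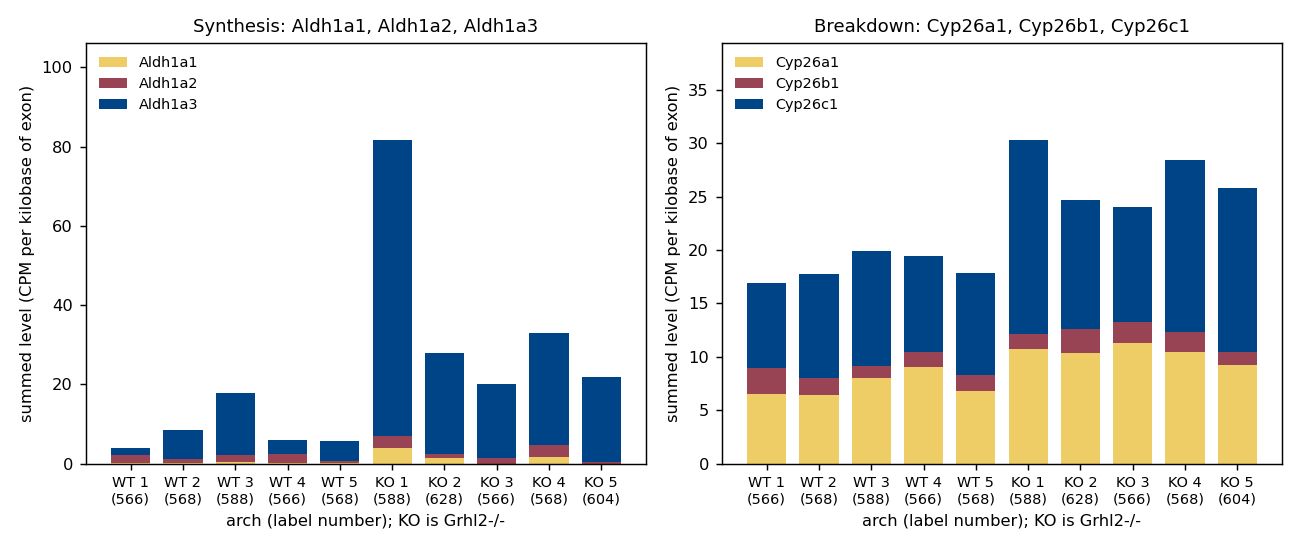
Summed level per kilobase of exon (RPKM) in each arch for the ALDH1A genes of retinoic acid synthesis (left) and the CYP26 genes of its breakdown (right), stacked by gene, with the label number under each arch. Aldh1a3 makes up at least 86.0% of the left bars in the KO arches, and both sums are higher in every KO arch than in every WT arch. The sums are set mainly by Aldh1a3, Cyp26a1 and Cyp26c1, which each lie higher in every KO arch on their own.

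The mean of Rarb was higher and that of Rarg lower in the KO arches, each with an FDR below 0.05 that missed 0.01. Rarb (chromosome 14, 16430839 to 16819156, minus strand) was at 34.5, 34.2, 29.4, 33.3 and 27.3 CPM in WT arches 1 to 5 and at 49.8, 49.6, 34.4, 53.4 and 36.5 CPM in KO arches 1 to 5. The groups overlapped at 1 point, where KO arch 3 lay below WT arch 1, and the KO arches fell into 3 at 49.6 to 53.4 CPM and 2 at 34.4 and 36.5 CPM. The level was 1.39-fold higher in the fit (log2 fold change 0.48, SE 0.131, interval 0.19 to 0.76, FDR 0.0470). This FDR stayed below 0.05 only without KO arch 3 (0.0158) or KO arch 5 (0.0445) when arches were left out 1 at a time, and reached 0.117 without KO arch 2. The others gave 0.0806, 0.0832, 0.0906, 0.0683 and 0.0976 without WT arches 1 to 5, 0.061 without KO arch 1 and 0.104 without KO arch 4. It was 0.112 without both arches of number 588, 0.147 without WT arches 1 and 2, and 0.0936 with the label number as a block. The KO arches low in Rarb, 3 and 5, are the same arches that were low in Aldh1a1 and Pmel, and within label number 566, which KO arch 3 carries, the difference in Rarb was 0.02 on the log2 CPM scale against 0.76 (588) and 0.81 (568). The exons of Rarb overlap those of Top2b and of an antisense gene, Gm48162, on the opposite strand over 2020 bases. The library kit marks strand, and the name of the deposited table says that reads were counted in reverse orientation, which would keep reads from these genes apart. No other source used here states the strand setting.

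Rarg (chromosome 15, 102234938 to 102257517, minus strand) was at 138, 121, 101, 109 and 111 CPM in WT and at 83.1, 94.5, 95.7, 89.7 and 96.3 CPM in KO arches. Every KO arch was below every WT arch, by the least against WT arch 3. The level was 1.26-fold lower in the fit (log2 fold change -0.33, SE 0.0776, interval -0.50 to -0.16, FDR 0.0292), and the KO arch was lower by 0.28, 0.36 and 0.37 on the log2 CPM scale within numbers 588, 566 and 568. With each arch left out in turn the FDR lay between 0.0167 and 0.075. It was above 0.05 without WT arch 2 (0.075), WT arch 5 (0.053), KO arch 2 (0.0567) or KO arch 4 (0.0717). The FDR was 0.0913 without WT arches 1 and 2 and 0.0554 with the label number as a block. The ratio of Rarg to Rarb in RPKM was 4.95, 4.38, 4.25, 4.05 and 5.01 in WT and 2.06, 2.35, 3.44, 2.07 and 3.26 in KO arches, without overlap between the genotypes. This ratio combines the lower Rarg and the higher Rarb given above and is not a separate result. Most of the epithelial genes listed were lower in the same arches. The summed level of 9 epithelial genes was 313 to 422 CPM in WT and 162 to 248 CPM in KO arches, with 6 of 9 lower at FDR below 0.01, among them Cdh1, Epcam, Cldn6, Esrp1 and Rab25. Krt8, Krt18 and Trp63 overlapped between the genotypes, with log2 fold changes of -0.40 (FDR 0.203), -0.07 (FDR 0.848) and -0.24 (FDR 0.0566). Rarg is known from surface ectoderm as well as from facial mesenchyme, and among 8 mesenchyme genes Msx1 (log2 fold change -0.66, FDR 0.00595) and Twist1 (log2 fold change -0.34, FDR 0.0189, named after its values were seen) were lower in every KO arch than in every WT arch. Msx1 and Twist1 were each highest in WT arches 1 and 2. In the same list Vim was at a log2 fold change of 0.64 (FDR 0.0535) and Alx4 and Pdgfra were at -0.05 each. Prrx1, Dlx5 and Dlx2 were at -0.25 (FDR 0.116), -0.29 (FDR 0.192) and -0.14 (FDR 0.379), and the median of the list was -0.197. The part of either tissue in the difference of Rarg was not tested.

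Of 49 other genes of the pathway, chosen by name from carriers, enzymes, receptors and responsive genes, 36 passed the filter on low counts. At FDR below 0.01, 0 of these were lower and 2 were higher in the KO arches, against 1.09% and 0.879% of all tested genes. Their median log2 fold change was 0.08, against 0.01 over all genes tested. Cyp1b1, a cytochrome P450 that can also oxidise retinol, rose from 5.18, 8.05, 9.20, 7.38 and 8.24 CPM in WT arches 1 to 5 to 20.4, 12.5, 13.4, 13.2 and 14.0 CPM in KO arches 1 to 5. All KO arches were above all WT arches, with a log2 fold change of 0.93 (SE 0.169, FDR 0.00894). Nr2f2, which encodes the retinoid-responsive orphan receptor COUP-TFII, rose from 122, 134, 121, 126 and 133 to 139, 170, 160, 155 and 168 CPM (log2 fold change 0.31, SE 0.0573, FDR 0.00917), also without overlap. Leaving out any 1 arch other than KO arch 1 left 0 of the other pathway genes called, and so did leaving out WT arches 1 and 2. With the label number as a block, Cyp1b1 was called and Nr2f2 was not. Stra6, the membrane receptor through which cells take up retinol from its carrier, missed FDR 0.01 with limma-voom and passed it with DESeq2. It is named after its values were seen. It was at 17.5 ± 2.57 CPM in WT and 23.6 ± 2.58 CPM in KO arches (SD, n = 5 each; log2 fold change 0.45, SE 0.101, FDR 0.0246), and the groups overlapped.

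The remaining pathway genes gave no call at FDR below 0.01. Among 8 of 9 carriers and uptake genes tested, the cellular retinoic acid binding protein genes Crabp1 and Crabp2 were at 231 and 256 CPM in WT and 238 and 241 CPM in KO arches, with log2 fold changes of 0.04 (FDR 0.816) and -0.08 (FDR 0.419). All 10 other receptors and cofactors were tested, of which the third retinoic acid receptor gene, Rara, was at 54.7 ± 3.55 CPM in WT and 58.7 ± 3.19 CPM in KO arches (log2 fold change 0.10, FDR 0.236). Its partner Rxra was at 133 ± 7.58 and 121 ± 8.16 CPM (log2 fold change -0.14, FDR 0.124). Of 15 responsive genes, 10 were tested. Among those not tested, Hoxb1, Hoxa4, Hoxd4 and Stra8 had at most 3 reads in any arch.

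**Figure D5:**
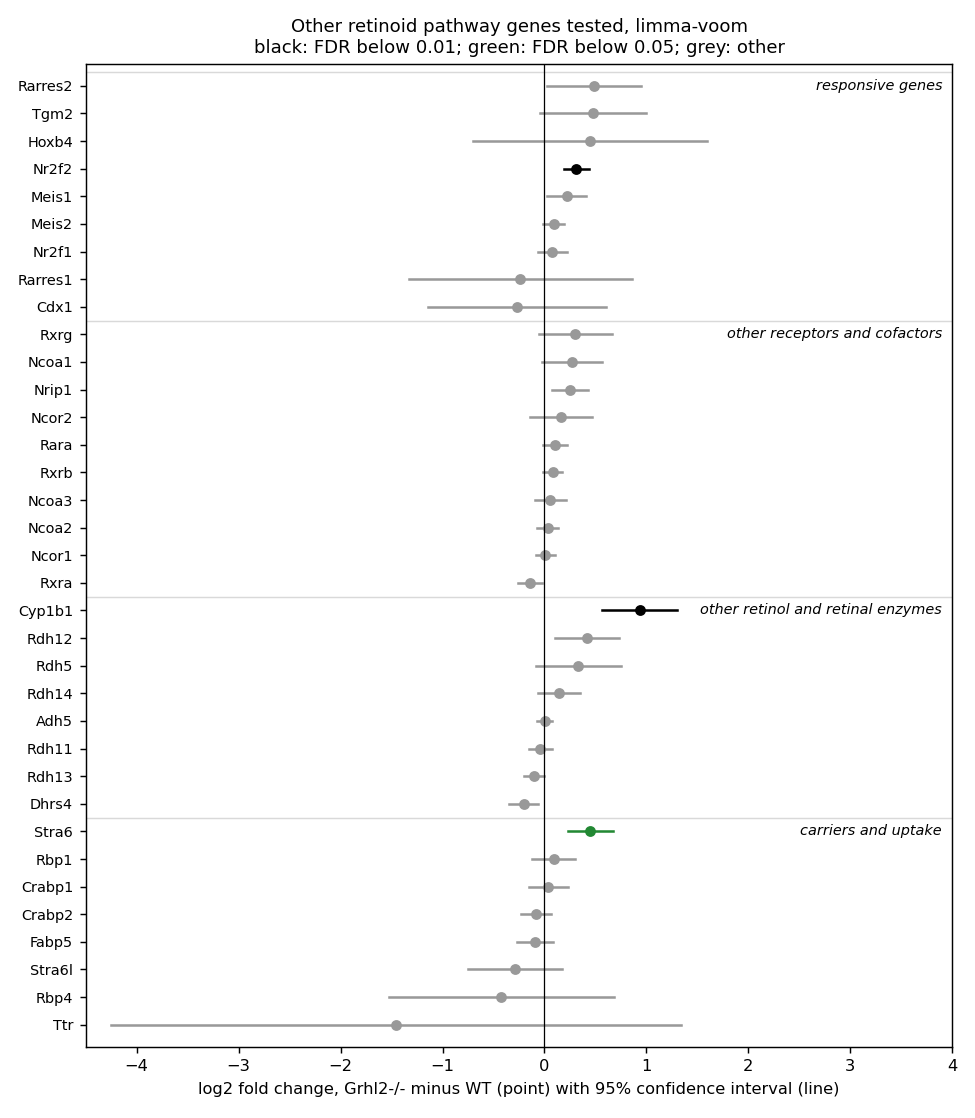
Log2 fold change, KO minus WT, with its 95% confidence interval from limma-voom, for 35 of the 36 other retinoid pathway genes tested, grouped by role (5 arches of each genotype). Cyp1b1 and Nr2f2 pass FDR 0.01, Stra6 passes FDR 0.05, and the intervals of most of the others include 0.

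Other marker lists were read beside these results. The defining genes of the arch were present, with 8 mesenchyme genes summing to 1701 to 2030 CPM in WT and 1510 to 1987 CPM in KO arches and 1 of them, Msx1, lower at FDR below 0.01 (0.00595). Lens genes summed to 8.04 to 11.3 CPM in WT and 14.9 to 19.3 CPM in KO arches, with 1 of 7 tested higher at FDR below 0.01 (Cryge). Most of this sum was Prox1, at 7.955 CPM in WT and 12.15 CPM in KO arches on average (FDR 0.0355), which overlapped between the genotypes. Neural tube genes summed to 37.2 to 57.5 CPM in WT and 48.7 to 74.6 CPM in KO arches, with 2 of 10 tested higher at FDR below 0.01 (Fgf15 and Pax8). At FDR below 0.05, 4 were higher and 1, Gbx2, was lower (log2 fold change -0.85, FDR 0.032). The largest part of this sum was Sox2, at 25.0 CPM in WT and 38.5 CPM in KO arches on average. Genes of the second and more caudal arches, where retinoic acid acts on Hox genes, were nearly absent, with 5 of 8 at 3 reads or fewer in every arch and a sum of 0.436 to 1.76 CPM in WT and 1.39 to 1.83 CPM in KO arches. In the lists for sensory neuron, ganglion glia, endothelium, erythroid, macrophage and muscle progenitor genes, 0 genes passed FDR 0.01. The part of these tissues in the differences above was not tested.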

How the data were processed

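RNA from PA1 of 5 WT and 5 KO embryos was sequenced as stranded total RNA depleted of ribosomal RNA. The authors aligned the reads to GRCm38 with STAR and deposited raw counts per gene from featureCounts, whose versions are not given in the sources used here. The submitters' processing notes list edgeR 3.18.1 and limma 3.32.7. A table of the authors' own comparison (fold changes, adjusted p-values and average expression) was not used.

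In R 4.3.3, limma 3.58.1 was run on counts normalized with edgeR 4.0.16, with the TMM normalization, limma-voom test and FDR threshold of the study's methods and genotype as the only term. Genes that reached 10 counts in 1 arch or more entered the test, p-values were Benjamini-Hochberg adjusted (FDR) over all 14561, and FDR below 0.01 was called. CPM values are TMM-normalized, and log2 CPM used a prior count of 0.5. Intervals are 95% confidence intervals of the log2 fold change, KO minus WT. They rest on limma's variance between arches, which is pooled over both genotypes and drawn towards that of other genes. The spread between the 5 arches of a genotype is given as the SD. The settings tried besides were DESeq2 1.42.0 without independent filtering, edgeR's quasi-likelihood test, 2 other scalings, 2 other filters, voomWithQualityWeights, a replicate block, FDR 0.05, exon length, and leaving out each arch. Leaving out both arches of number 588, or WT arches 1 and 2, was chosen after seeing the data. Tests were checked on simulated data. The genes and lists were chosen with earlier results of these data known. All 10 genes were named, called or not, and of the pathway and marker lists the genes past FDR 0.01, at most 5 a list. Other genes of these lists that are given with values (such as Six3, Pmel, Ebf2, Twist1, Crabp1 and Rara) fall outside this rule and were chosen after their values were seen. Coordinates and exon lengths are from GENCODE mouse release 21 (GRCm38), and promoters from RefSeq (GRCm38.p6). At these depths 3 reads were taken as the floor, which covers counting error only. The values of some listed genes are not reported here.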

Additional observations from a re-analysis of the deposited data

How the results depend on the processing

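With DESeq2, and with limma-voom at FDR below 0.05, 1 of the 10 genes was lower and 4 were higher in the KO arches, in place of 0 and 0. With voomWithQualityWeights and without both arches of number 588, 1 was higher (Aldh1a3). With arches left out 1 at a time, 0 to 1 were higher (Cyp26a1 without WT arch 4 and Cyp26c1 without KO arch 3) and 0 were lower. Of the other pathway genes, 2 were higher in the fit as reported, 0 to 2 with each arch left out and 0 without WT arches 1 and 2. With DESeq2, and with limma-voom at FDR below 0.05, 3 of them were higher (Cyp1b1, Nr2f2 and Stra6). The direction turned in genes without a call. Aldh1a2 had a log2 fold change of 0.19 with edgeR, 0.19 with DESeq2, 0.014 with library size alone and -0.32 to 0.48 with arches left out. Dhrs3 ran from -0.17 to 0.027 and Rdh10 from -0.0058 to 0.11 with arches left out. The cause was not tested. Over all alternatives, 181 log2 fold changes of the 10 genes kept their direction and their side of the threshold, and 14 reversed. Another 15 newly passed the threshold of their setting. Among these were Aldh1a3, Cyp26a1, Cyp26c1, Rarb and Rarg at FDR below 0.05, where the threshold moved and the values did not.

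With the label number as a replicate block, 1 of the 10 genes was higher (Aldh1a3, log2 fold change 2.36, FDR 0.0012), 1 other pathway gene was higher (Cyp1b1), and the log2 fold change was 3.06 for Aldh1a1 (FDR 0.0345), 0.50 for Aldh1a2 and 0.0044 for Dhrs3. Rarb and Rarg were no longer below FDR 0.05 with the block (0.0936 and 0.0554). Over all genes the block gave 69 lower and 60 higher, in place of 158 and 128. KO arches 2 and 5 carry numbers (628 and 604) that no WT arch shares, so the blocked comparison rests on KO arches 1, 3 and 4. Deviations of arches with the same number correlated at 0.105 on average over 5 pairs (-0.237 to 0.42), and 3 of these pairs were above 0.1. Over 20 pairs with different numbers the average was -0.0253. So few pairs cannot decide whether the numbers pair the arches, and the fit as reported left the number out. The paper states that controls were littermates where this was possible, without saying which arches share a litter. Of the 5 WT arches, 2 correlated best with their own number.

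With the longest transcript as the length, 10 of 20 levels per kilobase moved by more than the spread between arches. The labels name separate embryos but no litters, and 5 arches a genotype limit the precision, above all for Aldh1a1 and Aldh1a2, whose intervals span both directions. At this depth, Aldh1a1 in KO arches 3 and 5 and Hoxb1, Hoxa4 and Hoxd4 were at or near the floor.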
